A study of Mus musculus with 9 samples.

Results

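Gene expression was compared between mouse CD8 T cells labelled as lacking the transcription factors Tcf1 (the product of Tcf7) and Lef1 and wild-type CD8 T cells, across 9648 of the 23946 genes in the deposited expression table. These were the autosomal genes that reached at least 1 FPKM (fragments mapped to a gene, scaled to transcript length and to the mapped total) in at least 3 of the 6 libraries compared. The libraries were 3 with the genotype label Tcf1-/-Lef1-/- (called DKO here) and 3 labelled wild type (WT), out of 9 in the series. Every donor mouse carried the hCD2-Cre transgene, which expresses Cre recombinase under human CD2 control in lymphocytes rather than in CD8 T cells alone, and the Rosa26-lsl-GFP reporter that Cre switches on. The DKO donors also carried floxed Tcf1 and Lef1 alleles. Splenic CD8 T cells depleted of CD44-high cells were dyed with CTV, which dividing cells dilute. They were moved into Rag1 KO hosts, which lack mature T and B cells of their own. The cells were sorted 72 h later as CTV+GFP+TCRbeta+CD8+ cells. The series describes this setting as homeostatic proliferation, the division of naive T cells in such hosts. The source names also carry the words "stim CD8", with no further stimulus described. The ages and strains of the mice and the number of animals behind each library were not given in the sources used here, so p-values here reflect the spread among these libraries, which may be technical.

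Tcf1 and Lef1 are closely related proteins with a high-mobility-group (HMG) box that bind the same short DNA motif. They act with β-catenin in Wnt signalling, and with Groucho/TLE co-repressors when β-catenin is absent. In the thymus they help set T cell identity and keep genes of other lineages off in CD8 T cells, and in the periphery Tcf1 is high in naive, memory and stem-like CD8 T cells and low in terminal effectors.

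The targeted genes were read first. Lef1 RNA stood at 95.7, 87.4 and 89 FPKM in the DKO libraries and 360.3, 338 and 339 in WT. The groups did not overlap, and Lef1 fell without reaching 0 (log2 difference -1.92, SE 0.06, adjusted p = 3.1e-06). Tcf7 RNA stood at 339, 333 and 355 FPKM in the DKO libraries and 259, 262 and 249 in WT. It was higher, not lower, in every library labelled DKO (log2 difference 0.41, SE 0.05, adjusted p = 0.0011). FPKM are given for a whole gene, and the labels do not say which exons the floxed alleles remove, so this level does not test whether an intact Tcf7 transcript was lost. "DKO" below therefore means the libraries so labelled.

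The summed FPKM of the 6 libraries ranged from 629663 to 702470, and 9613 to 9832 genes of the table reached 1 FPKM. Depth is unknown, since the table holds FPKM and no counts. Pearson correlations of log2(FPKM + 1) over the 9648 genes were 0.987 to 0.993 within DKO, 0.960 to 0.984 within WT and 0.895 to 0.949 between the groups. The T cell gene Cd8b1 had a mean of 1895 FPKM in DKO and 1659.5 in WT. Cd3g was also higher in DKO (2134 and 1545 FPKM), whereas Cd8a (285 and 447) and Cd3d (507 and 804) were lower. The helper-lineage genes Cd4 (0.917 and 0.812 FPKM) and Zbtb7b (listed at 0 and at a mean of 0.0866) were near 0 in both groups. Of 6 B cell markers past the filter, 4 were higher (Cd79b, the invariant chain gene Cd74 and the MHC class II genes H2-Aa and H2-Ab1) and 1 was lower (Cd22). The summed FPKM of the 6 was 861 to 950 in DKO and 624 to 664 in WT. The defining B cell genes Ms4a1 and Pax5 had means below 1 FPKM in both groups.

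Each gene was tested by limma on log2(FPKM + 1), and a gene was called at a Benjamini-Hochberg adjusted p under 0.05 over all 9648 genes. By this rule 1714 genes (17.8%) were higher in DKO and 1980 (20.5%) were lower, 3694 (38.3%) in all. The 3 DKO libraries lay wholly above the 3 WT libraries for 2654 genes (27.5%) and wholly below them for 2618 (27.1%). Among the called genes, 512 were higher by at least 2-fold (5.31% of those tested) and 468 were lower by as much (4.85%). At 8-fold or more there were 27 rises and 61 falls. The number called higher depended on the libraries used. It was 1068 without WT library 2 and 1152 to 1209 without any 1 DKO library. Without WT library 1 or 3 it was 1503 or 1852.

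The largest changes took in several kinds of gene; the ranking leaves aside antigen receptor segments, small RNAs, clones and predicted genes. Gzma, which encodes the cytotoxic granule protease granzyme A, led the rises at 630.3, 759.5 and 738 FPKM in DKO and 27.9, 25.1 and 25.1 in WT. The largest fall was of Rpl34-ps1, a ribosomal protein pseudogene at 12.6, 9.16 and 0.405 FPKM in DKO and 1276, 1315 and 1223 in WT, whose reads may not be separable from those of its near-identical copies. Ly6c2, a surface antigen of memory and activated CD8 T cells, stood at 21.1, 19.3 and 18.1 FPKM in DKO and 838, 875 and 685 in WT. Among the 10 largest falls were also the mitotic genes Ccnb1, Ccnb2, Birc5 and Ube2c.

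**Figure D1:**
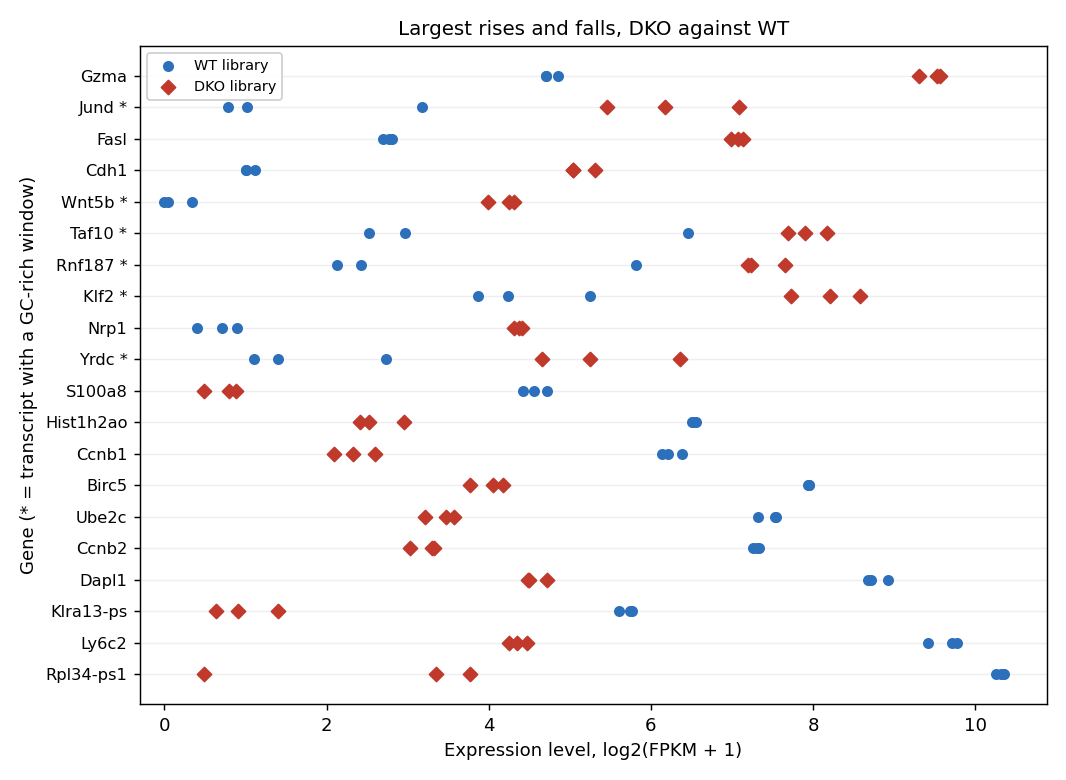
The 10 largest rises and the 10 largest falls among called genes that averaged at least 5 FPKM in 1 group and whose groups did not overlap. The horizontal axis is log2(FPKM + 1), each point is 1 library, and an asterisk marks a transcript with a GC-rich window; the WT points of Jund, Taf10, Rnf187 and Yrdc are spread far apart, whereas those of Gzma, Fasl and Cdh1 are close together.

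Some of these rises shared a property of sequence. For each gene, the highest GC content of any 100-base window in its longest transcript was found, and windows of at least 80% GC were called GC-rich. A GC-rich window was present in 2046 of the 9590 members with a transcript in the reference. Among those 2046 genes the median log2 difference was 0.39, with 30.4% called higher and 7.77% lower. Among the 7544 without one the median was -0.05, with 14.3% higher and 24% lower. The WT libraries also differed from each other in this respect: the median log2 deviation of GC-rich genes minus that of other genes was -0.46, -0.17 and 0.05 in the 3 WT libraries, and 0.21, 0.24 and 0.18 in the 3 DKO libraries. The calls of the GC-rich genes Taf10 (adjusted p = 0.061) and Rnf187 (0.054) ended without WT library 2. Of the 1714 genes called higher, 622 had a GC-rich window, as had 159 of the 1980 called lower. The part of this property in the differences was not tested, and genes that have such a window are marked as GC-rich where they are first named below. In an alternative added after the data were seen, each gene was centred on the median of genes with like GC. This shifted the log2 differences of the 45 GC-rich genes named by rule by -0.03 to -0.74, and by over 1.5-fold for 14 of them.

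**Figure D2:**
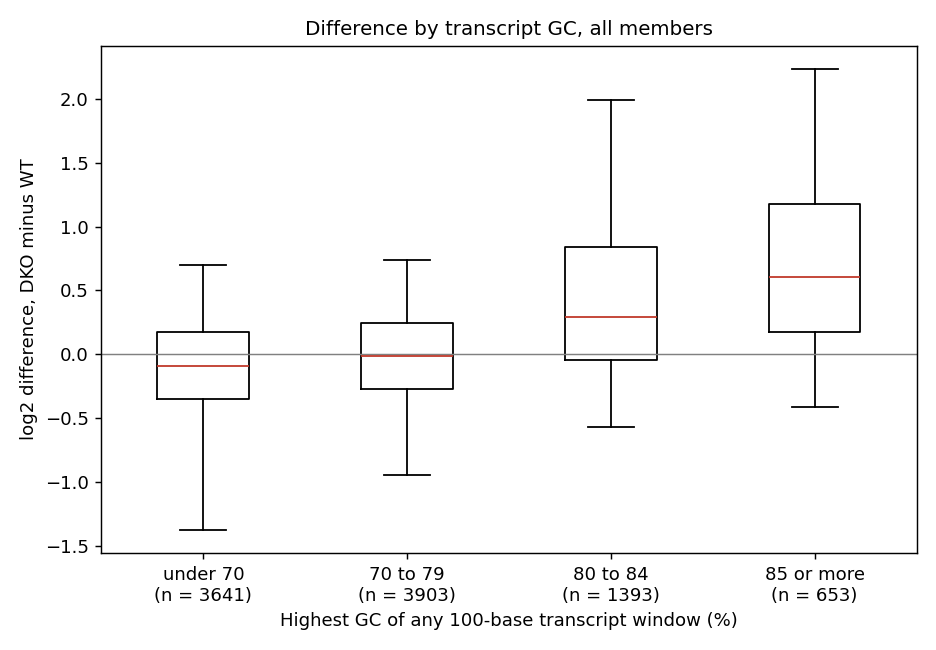
Log2 difference (DKO minus WT) of the 9590 members with a value, in bins of the highest GC percentage of any 100-base window of the transcript. Red lines are medians, boxes run from the 25th to the 75th percentile and whiskers run from the 5th to the 95th percentile; the median moves from -0.09 in the lowest bin to 0.60 in the highest.

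Receptors and adhesion molecules were taken from the whole table by gene name. Of 261 tested, 79 were higher in DKO and 70 lower, against 17.8% and 20.5% of all genes, and the median log2 difference was -0.04 against 0.01 over all members. GC-rich windows were rare among them, with 5 of the 79 and 4 of the 70. The shares of all genes, 17.8% and 20.5%, are the comparison for every family and list count below.

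**Figure D3:**
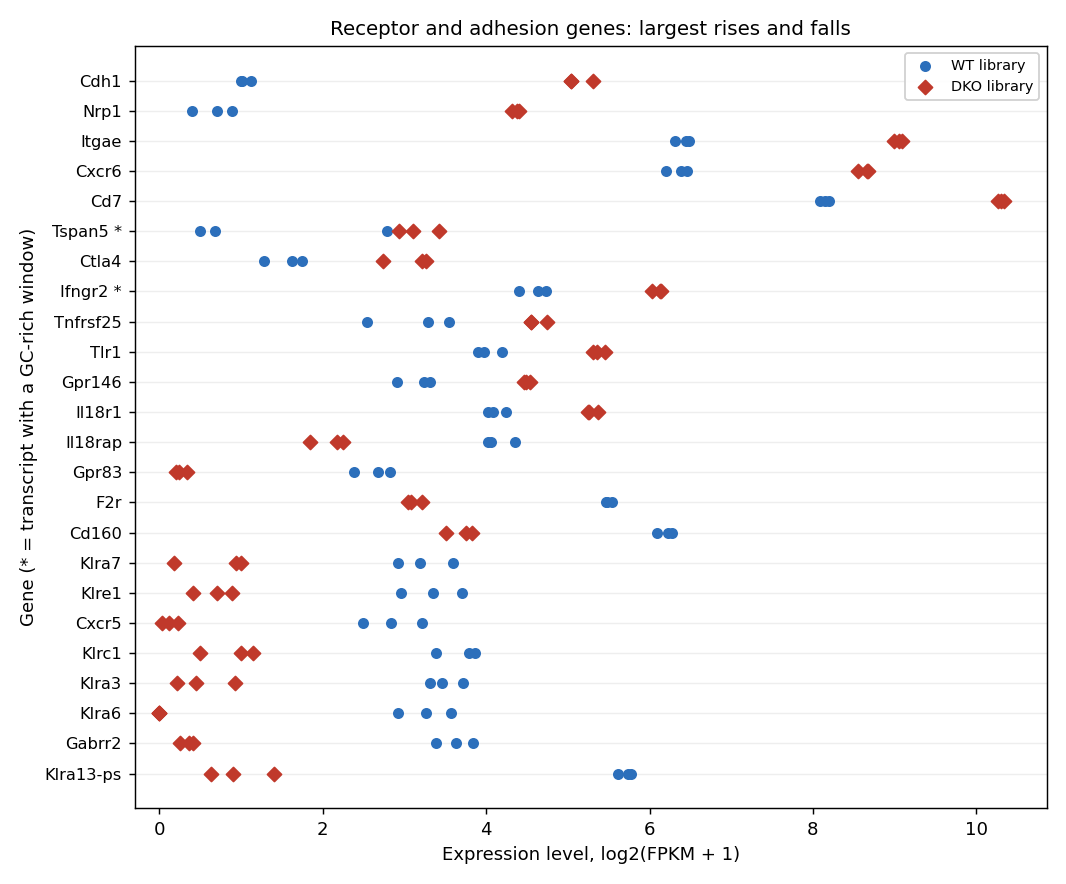
The 12 largest rises and the 12 largest falls among the reported receptor and adhesion genes that met the level and overlap rule. The horizontal axis is log2(FPKM + 1), each point is 1 library, and an asterisk marks a GC-rich transcript window; every gene shown has its DKO points wholly on 1 side of its WT points, with a narrow gap for Tspan5.

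Among adhesion molecules, 17 of 50 tested were higher (34%) and 9 lower (18%), beside 17.8% and 20.5% of all genes. Cdh1 encodes E-cadherin, an epithelial adhesion protein. It stood at 38.7, 32 and 31.8 FPKM in the DKO libraries and 1.17, 1.01 and 1 in WT. All DKO libraries were far above the WT libraries, where the level was close to 1 FPKM (log2 difference 4.09, SE 0.12, adjusted p = 2.5e-06). Itgae encodes CD103, the integrin chain that binds E-cadherin and marks tissue-resident CD8 T cells. It stood at 509, 531 and 543 FPKM in the DKO libraries and 88.3, 85.9 and 78.1 in WT. The groups were well apart and each was tight (log2 difference 2.64, SE 0.06, adjusted p = 1.3e-06). The tetraspanin gene Cd82 (463 ± 20.4 and 215 ± 11 FPKM in DKO and WT, mean ± SD, n = 3 here and below) and Nt5e, which encodes the AMP-hydrolysing enzyme CD73 (53.9 ± 2.69 and 23.7 ± 2.05), also rose. The platelet integrin genes Itga2b (1.41 and 0.255 FPKM) and Itgb3 (3.39 and 2.01, a call that ended in 5 of the 6 fits without 1 library) were called higher at low levels. They were the 2 of 10 platelet markers that passed the filter, with a summed FPKM of 4.34 to 5.21 in DKO and 1.41 to 2.73 in WT. Itga2b passed it through the DKO libraries, where it is high, and so could be counted only as higher. The platelet genes Pf4 (1.53 and 0.167 FPKM) and Gp6 (listed at 0 in both) did not pass, and the part of platelet RNA in these rises was not tested. The GC-rich Tspan5 had a single WT library close to the DKO values (7.58, 9.75 and 6.66 against 0.611, 0.415 and 5.9 FPKM) and its call ended in 5 of the 6 fits that left out 1 library.

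Adhesion genes that fell included Cd44, the hyaluronan receptor that is high on activated and memory T cells and whose high expressers had been removed before transfer. It stood at 4.84, 2.83 and 3.5 FPKM in the DKO libraries and 12.2, 13.9 and 13.4 in WT. Every DKO library was below every WT library (log2 difference -1.60, SE 0.17, adjusted p = 0.00054). Amica1, which encodes the junctional adhesion molecule-like protein JAML, fell from 79.99 ± 3.88 FPKM in WT to 27.5 ± 2.62 in DKO (log2 difference -1.51, SE 0.09, adjusted p = 3.8e-05). Itgal, the α chain of the integrin LFA-1, was called lower by a smaller margin, at 122 ± 3.57 against 191 ± 13.8 FPKM.

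Growth factor, guidance and related receptors included 11 higher and 4 lower of 30 tested. Nrp1 encodes neuropilin-1, a co-receptor for semaphorins and VEGF that in T cells is best known from regulatory T cells. It stood at 20.2, 19.7 and 18.9 FPKM in the DKO libraries and 0.859, 0.323 and 0.639 in WT. It was below 1 FPKM in every WT library and near 20 FPKM in every DKO library (log2 difference 3.69, SE 0.15, adjusted p = 9.1e-06). Igf1r, the receptor for insulin-like growth factor 1, was called higher from a level near 0 in WT (2.08 ± 0.472 against 0.184 ± 0.0689 FPKM). Tfrc, the transferrin receptor that brings iron into dividing cells, fell (10.4 ± 1.62 against 18.9 ± 1.84).

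Chemokine receptors moved in both directions, with 6 higher and 4 lower of 13 tested. Cxcr6, which binds CXCL16 and is prominent on tissue-resident T cells, stood at 373, 404 and 406 FPKM in the DKO libraries and 82.4, 87 and 72.5 in WT. This was the largest rise of a chemokine receptor and the groups did not overlap (log2 difference 2.28, SE 0.08, adjusted p = 5.3e-06). Ccr9, the receptor for the gut chemokine CCL25, rose from 18.8 ± 2.36 to 39.8 ± 2.96 FPKM, and Ccr8 was called higher at 2.33 against 0.495. Cxcr5, which guides lymphocytes to B cell follicles, fell from 6.36 ± 1.86 to 0.0935 ± 0.0778 FPKM (log2 difference -2.72, SE 0.20, adjusted p = 9.6e-05). Ccr7, which carries naive T cells to lymph nodes, fell from 508 ± 38.1 to 275 ± 6.47 FPKM (log2 difference -0.88, SE 0.07, adjusted p = 9.8e-05).

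Cytokine receptors included 13 higher and 8 lower of 29 tested, and in some receptors the chains moved apart. Il18r1, the IL-18-binding chain, stood at 36.9, 37.2 and 40.4 FPKM in the DKO libraries and 17.9, 15.3 and 15.9 in WT. Il18rap, its signalling partner, stood at 3.74, 2.6 and 3.53 FPKM in the DKO libraries and 19.4, 15.2 and 15.6 in WT. The binding chain rose (log2 difference 1.17, SE 0.09, adjusted p = 0.00012) and the partner fell (log2 difference -2.05, SE 0.16, adjusted p = 0.00011), with no overlap in either. In the IL-12 receptor, Il12rb2 rose (5.37 against 2.07 FPKM) and Il12rb1 fell (5.48 against 11.4). In the IL-2 and IL-15 receptors, Il2rb, the shared β chain, fell from 192 ± 2.56 to 101 ± 8.32 FPKM. Il2ra, the high-affinity IL-2 chain, was called higher at 2.41 ± 0.414 against 0.404 ± 0.146, and Il15ra lower at 7.01 ± 0.87 against 9.79 ± 0.464, a call that ended in 4 of the 6 fits without 1 library. Both IL-6 receptor chains fell: Il6st, which encodes gp130, stood at 12.5, 11.3 and 12.7 FPKM in the DKO libraries and 44.6, 43.3 and 41.5 in WT, well apart between groups (log2 difference -1.74, SE 0.08, adjusted p = 1.5e-05), and the GC-rich Il6ra was at 6.49 against 18.7, a call that ended in 5 of the 6 fits without 1 library. Il7r, which senses the homeostatic cytokine IL-7, rose from 54.8 ± 2.48 to 88.6 ± 8.89 FPKM. Ifngr2, a GC-rich gene for a chain of the interferon-γ receptor, rose from 23.2 ± 2.73 to 67.6 ± 2.72 FPKM (log2 difference 1.51, SE 0.10, adjusted p = 5.9e-05).

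Costimulatory and inhibitory receptors included 10 higher (20.8%) and 17 lower (35.4%) of 48 tested, beside 17.8% and 20.5% of all genes. Their median log2 difference was -0.29. Cd7, an immunoglobulin superfamily receptor of T and NK cells, stood at 1225, 1296 and 1259 FPKM in the DKO libraries and 282, 292 and 271 in WT. It had the highest DKO level of the 79 receptors that rose, and the libraries of each group were close together (log2 difference 2.16, SE 0.05, adjusted p = 1.3e-06). Ctla4, the inhibitory receptor for CD80 and CD86, rose (8.63, 5.67 and 8.3 against 2.08, 2.34 and 1.43 FPKM). Its counterpart Cd28, the costimulatory receptor for the same ligands, fell from 29.6 ± 2.08 to 17.2 ± 1.11. Cd160, a receptor for the TNF-receptor family member HVEM, stood at 10.3, 13.2 and 12.5 FPKM in the DKO libraries and 74, 76.3 and 67.4 in WT. It was lower in every DKO library (log2 difference -2.50, SE 0.11, adjusted p = 1.1e-05). Lower calls also covered receptors with nectin or nectin-like ligands: Crtam at 16.5 ± 1.44 against 49.8 ± 4.09, Cd226 at 15.9 ± 2.63 against 35.5 ± 2.87, and Tigit at 0.914 against 2.56 FPKM. Cd96, another receptor of that group, was called higher (271 ± 21.4 against 189.96 ± 24.3). Slamf6, a receptor often used with Tcf1 to mark stem-like CD8 T cells, fell from 74.3 ± 2.22 to 31.5 ± 3.66 FPKM. Pdcd1, which encodes PD-1, was low in both groups and lower in DKO (1.86 ± 0.709 against 4.35 ± 1.17). The calls of Tigit and of Pdcd1 each ended in 4 of the 6 fits without 1 library. Fcgrt, the neonatal Fc receptor chain, fell from 29.9 ± 2.27 to 8.52 ± 1.03.

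In the TNF receptor superfamily, 6 of 16 were higher and 3 lower. Tnfrsf25, which encodes DR3, the receptor for TL1A, stood at 22.4, 25.9 and 22.4 FPKM in the DKO libraries and 10.6, 8.75 and 4.82 in WT. It was higher in each DKO library, and the WT libraries were uneven (log2 difference 1.49, SE 0.25, adjusted p = 0.0039). Tnfrsf18, which encodes GITR, rose from 157 ± 9.8 to 249 ± 12.7 FPKM. Cd27, the receptor for CD70, fell from 295 ± 13.7 to 191 ± 10.6 (log2 difference -0.63, SE 0.06, adjusted p = 0.00047). The lower call of Tnfrsf13b, the receptor TACI, did not hold in 4 of the 6 fits that left out 1 library.

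G protein-coupled receptors other than chemokine receptors had 13 higher (31%) and 10 lower (23.8%) of 42, beside 17.8% and 20.5% of all genes. The sphingosine-1-phosphate receptor gene S1pr1, needed for exit from lymphoid organs, rose from 199 ± 10.7 to 342 ± 9.26 FPKM, and S1pr4 from 51 ± 1 to 101 ± 1.19. F2r, the thrombin receptor PAR1, stood at 8.27, 7.44 and 7.25 FPKM in the DKO libraries and 43.1, 43.5 and 45.6 in WT. Both groups were tight and far apart (log2 difference -2.38, SE 0.09, adjusted p = 6.9e-06). Vipr1, a receptor for vasoactive intestinal peptide, and Gpr83 fell to 2.56 ± 0.27 from 11.6 ± 3.17 and to 0.202 ± 0.0609 from 5.23 ± 0.938 FPKM. Gabrr2, which encodes a subunit of a GABA-gated ion channel, stood at 0.196, 0.334 and 0.283 FPKM in the DKO libraries and 13.3, 11.4 and 9.44 in WT, a loss to under 1 FPKM in every DKO library (log2 difference -3.27, SE 0.15, adjusted p = 1.2e-05).

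Among pattern recognition receptors, the partners of TLR2 moved apart from it. Tlr1 rose from 15.4 ± 1.79 to 40.4 ± 2.06 FPKM and Tlr6 from 3.4 ± 0.568 to 6.92 ± 0.69. Tlr2 itself was called lower (1.54 ± 0.451 against 4.25 ± 0.686).

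Of 22 lectin-like receptors tested, 11 were lower and 0 higher, and the median log2 difference was -0.71. After centring on like GC, 10 were lower and 1 higher. The lower genes included Klra6 and Klra3, which passed the filter through the WT libraries alone and so could be counted only as lower. Klra3 is also among the NK cell markers below. Klrc1 encodes NKG2A, an inhibitory receptor for the non-classical MHC molecule Qa-1. It stood at 1.01, 1.21 and 0.413 FPKM in the DKO libraries and 12.8, 9.47 and 13.6 in WT. Klrd1 encodes CD94, which pairs with NKG2A, and stood at 78.2, 70.9 and 82.2 FPKM in the DKO libraries and 172, 157 and 161 in WT. Both were lower in each DKO library (log2 difference -2.80 and -1.08), but Klrd1 remained abundant. The Klra genes encode Ly49 receptors for MHC class I, and Klra6 was listed at 0 in all DKO libraries and at 8.64, 10.9 and 6.59 FPKM in WT. Klra3 stood at 0.161, 0.901 and 0.365 FPKM in the DKO libraries and 12.1, 9.97 and 8.91 in WT. The lower calls held 7 names of this family (Klra1, Klra3, Klra6, Klra7, Klra9, Klra13-ps and Klra23), and because these genes are near copies of each other, reads may have been split between them. Of 14 NK and innate T cell markers past the filter, 8 were lower and 1 was higher (Nkg7), and their summed FPKM, mostly of Nkg7, was 4667 to 5279 in DKO and 3521 to 3889 in WT. The defining NK genes Ncr1 (0.97 and 1.32 FPKM) and Klrb1c (0.881 and 1.08) were near 1 in both groups, and the part of NK cell RNA in these falls was not tested. In bulk RNA, fewer cells that express such genes and less RNA per cell cannot be told apart, here or in any result below.

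Transcription factors were matched by name in the same way. Of 474 tested, 115 were higher in DKO and 35 lower, beside 17.8% and 20.5% of all genes, and the median log2 difference was 0.21. A GC-rich window was present in 128 of the 474, in 44 of the 115 that rose and in 11 of the 35 that fell. After centring on like GC, 119 were higher and 41 lower.

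**Figure D4:**
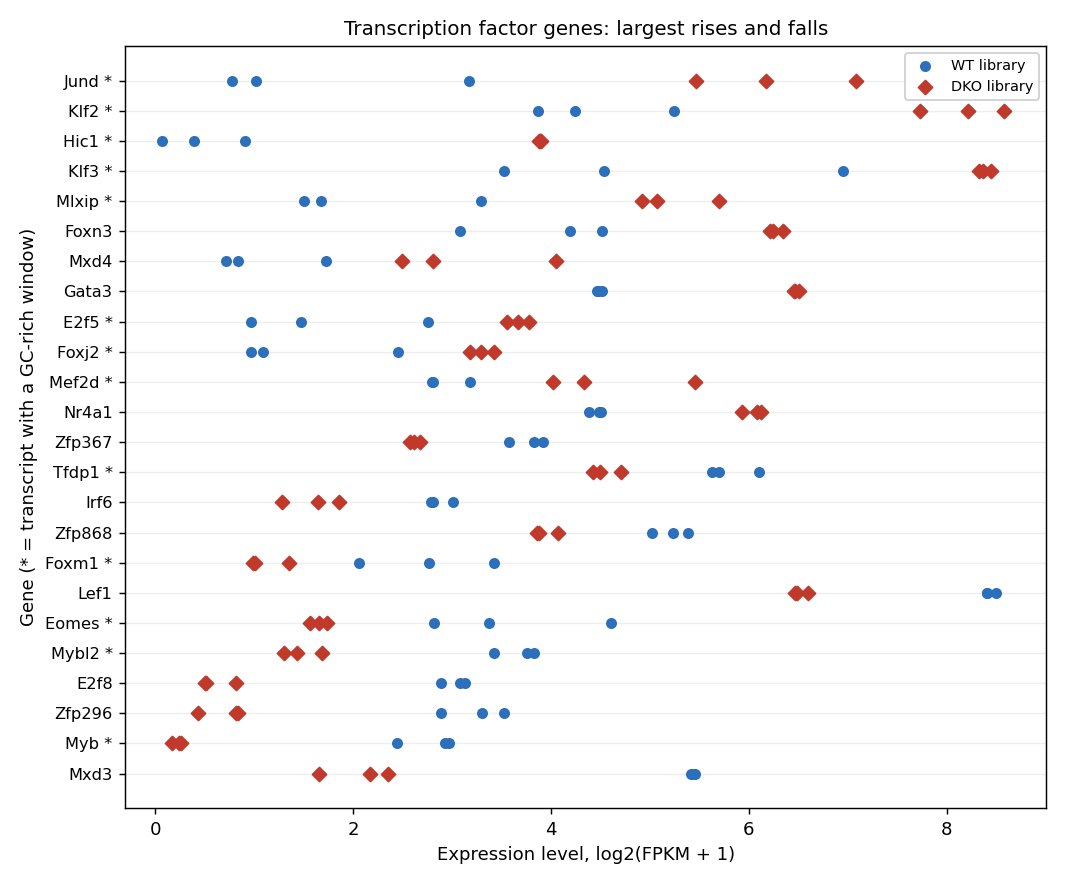
The 12 largest rises and the 12 largest falls among transcription factor genes that met the level and overlap rule. The horizontal axis is log2(FPKM + 1), each point is 1 library, and an asterisk marks a GC-rich transcript window; Gata3, Nr4a1, Mxd3 and Lef1 have tight groups, whereas the WT points of Klf3, E2f5 and Foxj2 are spread.

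The T-box, Runx, GATA and Fox families had 7 higher and 3 lower of 15. A GC-rich window was present in 4 of the 7 and 2 of the 3. After centring on like GC, 5 were higher and 3 lower, and the median log2 difference went from 0.915 to 0.469. Gata3, which directs T helper type 2 and early T cell development, stood at 86.9, 89.7 and 87.4 FPKM in the DKO libraries and 21.1, 21.8 and 21.2 in WT and was higher in DKO (log2 difference 1.99, SE 0.06, adjusted p = 3.2e-06). Foxn3, a forkhead repressor, stood at 74.6, 80.3 and 73 FPKM in the DKO libraries and 7.48, 17.3 and 21.8 in WT. It was higher in all DKO libraries, and the WT libraries were uneven (log2 difference 2.33, SE 0.34, adjusted p = 0.0021). Tbx21, which encodes the effector factor T-bet, fell from 30.9 ± 1.05 to 22 ± 1.44 FPKM. Its GC-rich relative Eomes, a factor of memory and virtual memory CD8 T cells, stood at 1.96, 2.35 and 2.15 FPKM in the DKO libraries and 6.05, 9.38 and 23.4 in WT. The WT libraries of Eomes ranged widely and all were above DKO (log2 difference -1.95, SE 0.42, adjusted p = 0.011). The GC-rich genes Runx3, which sets the CD8 lineage, and Foxo1, which keeps naive T cells quiescent, were called higher, Runx3 at 51.4 ± 0.628 against 21.2 ± 9.79 and Foxo1 at 12.3, 39.6 and 12.5 against 6.07, 6.58 and 8.12 FPKM. The DKO libraries of Foxo1 were uneven, and its call ended in 4 of the 6 fits that left out 1 library and after centring on like GC.

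The inhibitors of DNA binding moved in opposite directions. Id3 stood at 343, 326 and 313 FPKM in the DKO libraries and 181, 178 and 184 in WT. Id2 stood at 66, 58.8 and 58.3 FPKM in the DKO libraries and 131, 132 and 133 in WT. Id3, which is usually associated with memory precursors, rose (log2 difference 0.85, SE 0.05, adjusted p = 5.3e-05), and Id2, associated with effector differentiation, fell (log2 difference -1.11, SE 0.07, adjusted p = 4.2e-05). Bhlhe40, a repressor of the basic helix-loop-helix family used by tissue-resident T cells, rose from 5.3 ± 0.549 to 14.7 ± 1.43 FPKM (log2 difference 1.31, SE 0.12, adjusted p = 0.0003). Srebf2, which drives cholesterol synthesis and uptake genes, rose from 44.3 ± 2.04 to 77.1 ± 1.32. The MYC antagonist genes also split, with Mxd4 at 5.99, 15.6 and 4.65 FPKM in the DKO libraries and 0.791, 0.644 and 2.3 in WT and Mxd3, which is expressed in dividing cells, at 4.12, 3.5 and 2.15 FPKM in the DKO libraries and 42.4, 42.9 and 41.8 in WT. Mxd3 showed the largest fall of any transcription factor (log2 difference -3.38, SE 0.18, adjusted p = 2.5e-05), and DKO library 2 was well above the other DKO libraries for Mxd4.

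Zinc finger regulators had 25 higher and 4 lower of 64, and 11 of the 25 were GC-rich. After centring on like GC, 20 were higher and 4 lower. Klf2, a GC-rich gene for a factor that holds T cells quiescent and activates S1pr1, stood at 295, 382 and 211 FPKM in the DKO libraries and 13.6, 17.9 and 36.9 in WT. Every DKO library was above every WT library, with spread in both groups (log2 difference 3.72, SE 0.37, adjusted p = 0.00039). Klf3, also GC-rich, stood at 347, 329 and 320.5 FPKM in the DKO libraries and 10.5, 22.3 and 123 in WT. Its WT libraries spanned a wide range and its call ended without WT library 2 (adjusted p = 0.053). Hic1, a GC-rich repressor gene used by intestinal resident T cells, stood at 13.8, 13.8 and 13.9 FPKM in the DKO libraries and 0.0512, 0.318 and 0.88 in WT. Its DKO libraries were nearly equal and its WT libraries all below 1 FPKM (log2 difference 3.43, SE 0.21, adjusted p = 4.5e-05). Among genes without a GC-rich window, Prdm1, which encodes the effector regulator Blimp-1, was called higher at 3.54 ± 0.283 against 0.385 ± 0.155 FPKM. Bcl11b, which maintains T cell identity, rose from 8.48 ± 1.02 to 18 ± 5.72, with a call that ended without WT library 2. Zbtb32 was called lower at 0.209 ± 0.164 against 3 ± 0.346.

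Nuclear receptors had 7 higher and 0 lower of 15, and 4 of the 7 were GC-rich; after centring on like GC, 5 were higher and 1 lower. Nr4a1, an early response gene to antigen receptor signals that encodes Nur77, stood at 68.7, 66.6 and 60.2 FPKM in the DKO libraries and 19.9, 21.4 and 21.8 in WT. The groups were far apart (log2 difference 1.59, SE 0.08, adjusted p = 2.2e-05). The retinoic acid receptor genes Rarg (9.45 ± 0.73 against 3.09 ± 0.667 FPKM) and the GC-rich Rara (38.5 ± 1.87 against 14.3 ± 0.536) rose. Centring took the log2 difference of Rara from 1.37 to 0.63 (adjusted p = 0.039). The AP-1, Batf, Maf, Bach, CREB and C/EBP families had 7 higher (22.6%) and 2 lower (6.45%) of 31, beside 17.8% and 20.5% of all genes. After centring on like GC, 5 were higher and 2 lower. Among them, Fos rose from 154 ± 4.02 to 259 ± 3.56 and Junb from 476 ± 25.8 to 780.1 ± 24.7 FPKM. The GC-rich Jund stood at 71.1, 135 and 43.1 FPKM in the DKO libraries and 0.72, 1.03 and 8.02 in WT, the largest rise of any transcription factor, with an uneven spread in both groups.

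Signal-driven factors of the NF-κB, NFAT, STAT, IRF and SMAD families had 15 higher and 3 lower of 30. Irf7, an amplifier of the type I interferon response, stood at 148, 165 and 159 FPKM in the DKO libraries and 79.5, 74.2 and 67.4 in WT. It was higher in each DKO library (log2 difference 1.09, SE 0.08, adjusted p = 0.0001), as were Irf1, Irf2, Irf3, Irf9 and Stat2, which were all called higher, although the call ended in 2 of the 6 fits without 1 library for Irf2 and in 4 for Irf3. In the non-canonical NF-κB pathway, Nfkb2 rose from 40.8 ± 2.12 to 63.5 ± 2.39 FPKM and the GC-rich Relb from 20.02 ± 8.15 to 48.5 ± 6.48. The TGF-β signalling gene Smad3, GC-rich, was at 22.4, 19.9 and 18.4 FPKM in DKO and 3.43, 8.15 and 11.7 in WT, and its call ended when any single DKO library was left out. Stat4, which transmits IL-12 signals, fell from 144 ± 12.6 to 82.4 ± 3.14 (log2 difference -0.80, SE 0.08, adjusted p = 0.00041), and Irf8 from 23.3 ± 1.56 to 14.4 ± 2.81.

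The ETS, MEF2, MYB, E2F, homeobox and POU families had 11 higher (22.9%) and 9 lower (18.8%) of 48, near the 17.8% and 20.5% of all genes. After centring on like GC the counts were 9 and 11. E2f8, a repressor made in S phase, stood at 0.769, 0.421 and 0.425 FPKM in the DKO libraries and 7.46, 7.77 and 6.43 in WT. It was under 1 FPKM in each DKO library (log2 difference -2.42, SE 0.15, adjusted p = 4.0e-05). The GC-rich genes Myb (0.17 ± 0.037 against 5.96 ± 1.31 FPKM), Mybl2 (1.8 ± 0.38 against 11.8 ± 1.85), Foxm1 (1.19 ± 0.319 against 6.24 ± 3.32) and Tfdp1 (22.4 ± 2.49 against 55.7 ± 10.4) fell as well, although the median difference of GC-rich genes was above 0. The GC-rich E2f5 rose (11.7 ± 0.969 against 2.83 ± 2.56).

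The falls of E2f8, Mybl2 and Foxm1 stood beside those of the cell cycle machinery, given here only as the setting for its promoters. Of the G2/M and mitosis genes, 45 of 47 tested were lower, and of the G1/S and S phase genes 43 of 49. Ube2c, which encodes the ubiquitin-conjugating enzyme of the anaphase-promoting complex, stood at 10.1, 10.8 and 8.31 FPKM in the DKO libraries and 183, 185 and 159 in WT, with no overlap. Stmn1, a microtubule-destabilising protein gene chosen after its values were seen, stood at 80.6, 78.5 and 78 FPKM in the DKO libraries and 859.5, 801 and 718 in WT. Promoters (the 250 bases before the first listed RefSeq start, GRCm38.p6) were searched on both strands for the cell-cycle homology region TTTGAA (CHR), the CCAAT box CCAAT, and E2F motifs TTTGGCGC, TTTCCCGC or TTCGCGC; a promoter was found for 7354 of the 9648 members. CHR letters were present in 31.6% of the G2/M promoters and 10.6% of all, CCAAT in 71.1% and 37.2%, and E2F letters in 18.4% of the G1/S promoters and 5.52% of all. Among genes called lower by at least 2-fold, 21.4% held CHR and 49.9% held CCAAT. Those genes include 45 of the G2/M list and 34 of the G1/S list, so these shares are not independent of the list shares. The promoters of Ccnb2 (chr9:70421555-70421804, minus strand) and Ube2c (chr2:164769679-164769928, plus strand), the largest falls of that list with a motif, are printed 5′ to 3′ on the strand of the gene, with CHR and CCAAT letters or their complements in capitals; in Ube2c the run CCAATTGG is a CCAAT box overlapping another on the opposite strand.
Ccnb2: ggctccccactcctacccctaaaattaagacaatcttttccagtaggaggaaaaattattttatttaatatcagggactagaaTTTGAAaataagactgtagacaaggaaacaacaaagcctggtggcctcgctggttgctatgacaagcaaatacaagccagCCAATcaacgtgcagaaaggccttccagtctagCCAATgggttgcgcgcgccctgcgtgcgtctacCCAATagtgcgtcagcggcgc
Ube2c: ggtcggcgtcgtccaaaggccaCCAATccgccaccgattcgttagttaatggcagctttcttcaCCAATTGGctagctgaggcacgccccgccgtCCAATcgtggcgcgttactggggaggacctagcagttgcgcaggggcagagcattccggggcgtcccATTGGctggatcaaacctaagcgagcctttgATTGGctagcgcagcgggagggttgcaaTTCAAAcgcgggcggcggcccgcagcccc
In Ccnb2 the CCAAT boxes begin 87, 54 and 21 bases before the start and the CHR letters 167 bases before it. In Ube2c the CHR letters begin 29 bases before the start. A match describes letters and does not show that a factor binds there.

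Secreted factors, membrane-bound TNF ligands included, had 29 higher and 31 lower of 100 tested, beside 17.8% and 20.5% of all genes, with a median log2 difference of -0.03. GC-rich windows were present in 6 of the 29 and 1 of the 31.

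**Figure D5:**
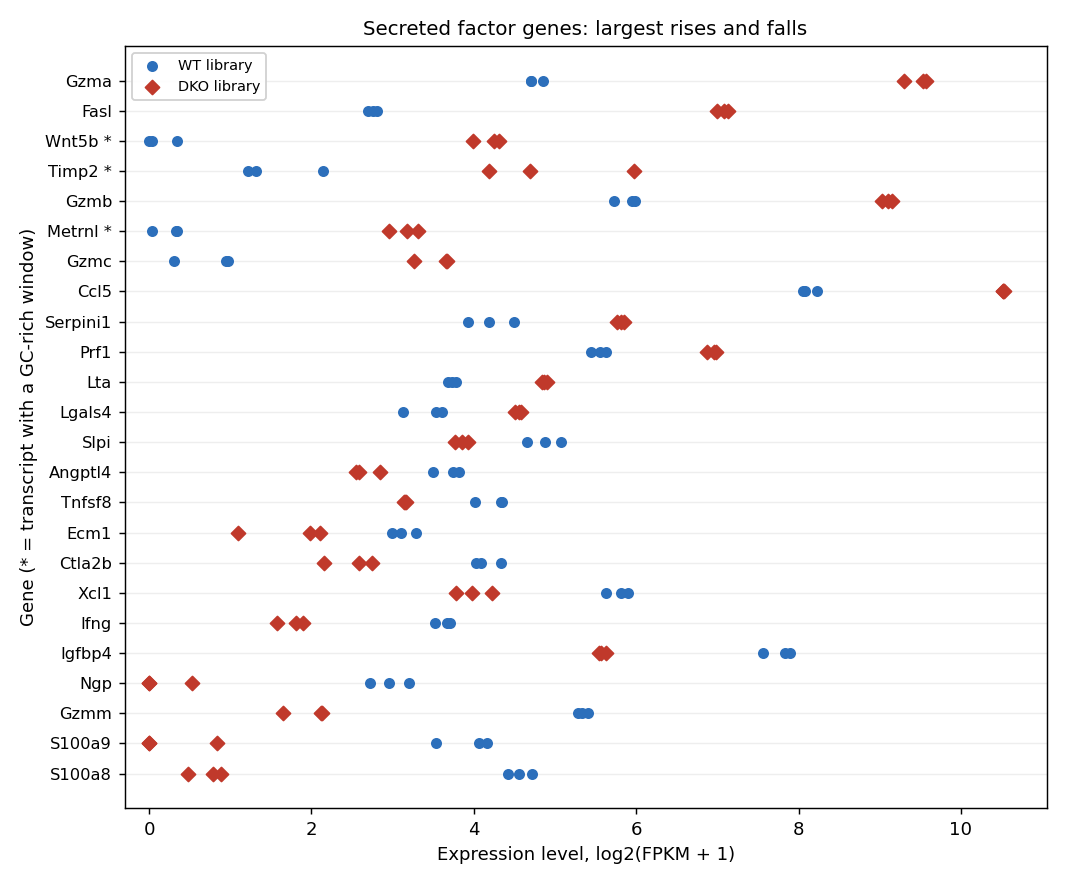
The 12 largest rises and the 12 largest falls among secreted factor genes that met the level and overlap rule. The horizontal axis is log2(FPKM + 1), each point is 1 library, and an asterisk marks a GC-rich transcript window; the rises are led by Gzma, Fasl and the GC-rich Wnt5b, and the falls by the neutrophil genes S100a8 and S100a9 and by Gzmm.

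Cytotoxic granule genes moved both ways. Prf1 encodes perforin, which opens target cell membranes to granzymes, and stood at 126, 123 and 116 FPKM in the DKO libraries and 46, 48.7 and 42.7 in WT. It was higher in all DKO libraries (log2 difference 1.39, SE 0.07, adjusted p = 2.1e-05). Gzmc, a granzyme of strongly activated cells, stood at 11.7, 11.7 and 8.57 FPKM in the DKO libraries and 0.936, 0.243 and 0.963 in WT. Its WT libraries were all below 1 FPKM (log2 difference 2.78, SE 0.22, adjusted p = 0.00014). Gzma and Gzmb rose and Gzmm fell, and as granzyme genes resemble each other, reads of Gzmb and Gzmc may not be fully separable. Of the protease inhibitors, Serpini1, which encodes neuroserpin, stood at 55.2, 53.6 and 56.7 FPKM in the DKO libraries and 21.5, 17.2 and 14.2 in WT (log2 difference 1.61, SE 0.14, adjusted p = 0.00023). Cst7, the cystatin F gene whose product restrains granzyme activation, fell from 250.5 ± 21.2 to 143 ± 11 FPKM. Slpi fell from 28.3 ± 4.26 to 13.5 ± 0.815, and Ctla2b, a cysteine protease inhibitor gene with a near copy in Ctla2a, from 16.9 ± 2.09 to 4.73 ± 1.15.

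TNF family ligands included 3 higher and 2 lower of 8. Fasl, which encodes the death-inducing Fas ligand, was at 133 ± 6.64 FPKM in DKO and 5.8, 5.46 and 5.98 in WT. It was the largest rise of the family and both groups were tight (log2 difference 4.32, SE 0.08, adjusted p = 7.3e-07). Lta, which encodes lymphotoxin-α, stood at 27.6, 28.2 and 28.9 FPKM in the DKO libraries and 11.9, 12.3 and 12.7 in WT. The groups were tight and apart (log2 difference 1.13, SE 0.08, adjusted p = 8.5e-05). Its partner Ltb rose by less (705 ± 30.4 against 575 ± 13.7 FPKM). Tnfsf8, which encodes CD30 ligand, fell from 17.9 ± 2.36 to 7.9 ± 0.064. Tnfsf14, which encodes LIGHT, was called lower at 0.138 ± 0.0772 against 1.89 ± 0.28 FPKM.

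Of 10 interleukins, interferons and related cytokines tested, 3 were higher and 5 lower. Of 9 chemokines 1 was higher (Ccl5, 11.1%) and 2 were lower (22.2%), beside 17.8% and 20.5% of all genes. Ifng, the interferon-γ gene, stood at 1.99, 2.51 and 2.73 FPKM in the DKO libraries and 10.5, 11.7 and 12.1 in WT. Each DKO library was below 3 FPKM and each WT library above 10 FPKM (log2 difference -1.87, SE 0.13, adjusted p = 7.7e-05). Xcl1, which attracts cross-presenting dendritic cells through XCR1, stood at 12.7, 14.8 and 17.6 FPKM in the DKO libraries and 55.1, 58.8 and 48.7 in WT. It was lower in every DKO library (log2 difference -1.79, SE 0.13, adjusted p = 9.9e-05). Mif fell from 853 ± 25 to 575 ± 39.7 FPKM and Flt3l, a growth factor for dendritic cells, from 77.3 ± 4.17 to 53.7 ± 4.84. Csf1, the macrophage growth factor gene, was called higher from near 0 in WT (2.88, 2.4 and 2.01 FPKM in the DKO libraries and 0.217, 0 and 0.0265 in WT). Clcf1, a GC-rich gene for a cytokine of the IL-6 family, rose from 16.9 ± 2.28 to 36.7 ± 6.42. The call of Ccl4 (log2 difference -0.25) ended in 5 of the 6 fits that left out 1 library.

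Growth factor, Wnt and guidance ligand genes had 3 higher (21.4%) and 3 lower (21.4%) of 14, near the 17.8% and 20.5% of all genes. Of the 3 that rose, 2 were GC-rich. A few of these genes had some of the largest differences. Wnt5b, a GC-rich gene for a Wnt ligand, stood at 18.1, 18.8 and 14.9 FPKM in the DKO libraries and 0, 0.0285 and 0.265 in WT. It was under 0.3 FPKM in each WT library (log2 difference 4.06, SE 0.15, adjusted p = 7.1e-06). Metrnl, a GC-rich gene for the secreted factor meteorin-like, stood at 8.95, 8.06 and 6.75 FPKM in the DKO libraries and 0.0231, 0.263 and 0.272 in WT. Both genes were close to 0 in all 3 WT libraries. Igfbp4, a binding protein for insulin-like growth factors that is high in naive T cells, stood at 45.6, 48.3 and 46.6 FPKM in the DKO libraries and 188, 237 and 227 in WT. It was lower in DKO without overlap (log2 difference -2.18, SE 0.10, adjusted p = 1.1e-05). Of other secreted proteins, Lgals4, which encodes galectin-4, rose from 9.82 ± 1.81 to 22.4 ± 0.604 FPKM, and Fgl2, a fibrinogen-like protein of regulatory T cells, from 1.98 ± 0.29 to 5.04 ± 0.608. Ecm1 fell from 7.79 ± 0.931 to 2.48 ± 1.17.

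The falls of secreted antimicrobial proteins coincided with neutrophil markers. All 6 neutrophil genes that passed the filter were lower (S100a8, S100a9, Ngp, Camp, Ltf and Lcn2), through the WT libraries, where they passed it. The summed FPKM of those 6 was 0.841 to 1.54 in the DKO libraries and 43.5 to 56.7 in the WT libraries. Other defining neutrophil genes were at or near 0 in both groups, with Elane at 0 and 0 FPKM and Csf3r at 0.232 and 0.542. The part of neutrophil RNA in these falls was not tested.

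Members of the Wnt and TCF/LEF pathway were read from a list of 77 genes, of which 37 passed the filter and 14 were higher (37.8%) and 6 lower (16.2%), beside 17.8% and 20.5% of all genes. Of the 14 that rose, 10 were GC-rich, and after centring on like GC the counts were 10 and 7. Among those without a GC-rich window, Jup, which encodes the β-catenin relative plakoglobin, rose from 1.81 ± 0.272 to 5.63 ± 0.5 FPKM (log2 difference 1.24, SE 0.13, adjusted p = 0.00056). Rnf43, an inhibitor of Wnt receptors, rose from 0.748 ± 0.0655 to 2.21 ± 0.492, and Tnik, a kinase that acts with TCF proteins, from 7.84 ± 0.512 to 12.5 ± 0.287. Tle1, a GC-rich gene for a Groucho/TLE co-repressor, stood at 7.96, 8.1 and 6.71 FPKM in the DKO libraries and 0.209, 0.475 and 2.65 in WT. Its WT libraries were uneven, all below DKO (adjusted p = 0.0053). Among the falls, Cby1, an antagonist of β-catenin, went from 18 ± 2.42 to 9.1 ± 0.965 and Hdac1, a histone deacetylase, from 335 ± 31.3 to 226 ± 8.54 FPKM. Ctnnb1, the GC-rich β-catenin gene, was at 58.5 ± 2.22 and 52.8 ± 3.98 FPKM (adjusted p = 0.17). The classic pathway target Axin2 did not pass the filter, at 0.355 and 0.294 FPKM. The higher calls of the GC-rich genes Axin1, Apc, Bcl9, Pygo2 and Kremen1 ended after centring on like GC, and those of Axin1 and Bcl9 also ended in 5 and 6 of the 6 fits that left out 1 library.

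The motif that Tcf1 and Lef1 bind, searched as CTTTGAT on both strands, was present in 2.2% of the 7354 promoters. It was present in 2.4% of those called higher and 1.95% of those called lower. Both shares were close to that of all members in this short window. The promoters of named genes that held it are shown for Trat1 (chr16:48772063-48772312, minus strand), Klra6 (chr6:130026955-130027204, minus strand) and Cd3d (chr9:44981536-44981785, plus strand) in RefSeq's GRCm38.p6, 5′ to 3′ on the strand of the gene, with the motif or its complement in capitals.
Trat1: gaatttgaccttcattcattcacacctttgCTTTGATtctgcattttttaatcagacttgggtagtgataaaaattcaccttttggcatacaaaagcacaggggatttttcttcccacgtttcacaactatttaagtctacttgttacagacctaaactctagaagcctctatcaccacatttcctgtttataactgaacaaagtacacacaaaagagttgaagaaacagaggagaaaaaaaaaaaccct
Klra6: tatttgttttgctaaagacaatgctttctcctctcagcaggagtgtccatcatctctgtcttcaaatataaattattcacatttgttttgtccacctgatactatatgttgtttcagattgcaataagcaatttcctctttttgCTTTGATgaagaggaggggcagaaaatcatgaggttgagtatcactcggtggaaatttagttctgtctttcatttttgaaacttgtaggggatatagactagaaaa
Cd3d: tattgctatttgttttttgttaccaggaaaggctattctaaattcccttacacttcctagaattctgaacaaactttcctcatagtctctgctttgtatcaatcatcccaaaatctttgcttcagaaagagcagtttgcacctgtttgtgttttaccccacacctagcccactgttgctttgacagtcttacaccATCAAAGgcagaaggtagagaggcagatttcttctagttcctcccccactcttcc
Trat1, which encodes an adaptor that stabilises T cell receptors at the surface, rose from 22.6 ± 3.34 to 49 ± 2.46 FPKM. Cd3d, a chain of the receptor complex, fell from 804 ± 25.6 to 507 ± 27.8 (log2 difference -0.67, SE 0.06, adjusted p = 0.0002). The motif lay 220, 106 and 55 bases before the start in these promoters, and promoters without these letters may hold sites outside this window.

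The receptor complex and naive-state genes were divided. Of 22 T cell identity genes, 8 were higher and 8 lower: Cd247, the ζ chain, rose from 359 ± 29.1 to 765 ± 52.5 FPKM and Cd3g from 1545 ± 77.7 to 2134 ± 103, whereas Cd8a fell from 447 ± 31.2 to 285 ± 7 and Cd5 from 110.1 ± 2.3 to 62 ± 1.2. Of 36 naive and quiescence genes, 16 were higher and 14 lower. Btg2, an antiproliferative gene, stood at 156, 148 and 164 FPKM in the DKO libraries and 70.7, 66.3 and 64.5 in WT and was higher in DKO (log2 difference 1.20, SE 0.07, adjusted p = 3.1e-05). Bcl2, a GC-rich survival gene, rose from 96.8 ± 1.18 to 184 ± 8.02 FPKM. On the other side, Nsg2 stood at 12.7, 10.9 and 10.5 FPKM in the DKO libraries and 40.2, 43.1 and 39.3 in WT, lower in every DKO library. Genes associated with helper and regulatory T cells had 10 higher and 4 lower of 18 tested. Besides Gata3, Nrp1, Itgae, Ctla4, Nt5e and Tnfrsf18 above, the suppressor of cytokine signalling Socs2 rose from 1.01 ± 0.109 to 4.71 ± 0.433. The 4 lower genes included Cxcr5 and Gpr83, given above. Also among them, Folr4, the folate receptor family gene also called Izumo1r, stood at 1.95, 1.15 and 2.47 FPKM in the DKO libraries and 27.8, 26.6 and 28 in WT. Folr4 fell (log2 difference -3.34, SE 0.18, adjusted p = 2.6e-05).

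Genes outside these groups were chosen after their values were seen. Cish, an inhibitor of cytokine and T cell receptor signalling that cytokines induce, stood at 83.3, 97.4 and 96.3 FPKM in the DKO libraries and 16.7, 18.1 and 14.1 in WT. It was higher in all DKO libraries (log2 difference 2.43, SE 0.11, adjusted p = 1.2e-05). Pmaip1, which encodes the pro-apoptotic protein Noxa, stood at 43.4, 33.6 and 46.5 FPKM in the DKO libraries and 5.32, 5.11 and 7.42 in WT. It also rose, with some spread in DKO (log2 difference 2.60, SE 0.17, adjusted p = 6.0e-05). Asns, the asparagine synthetase gene, stood at 0.366, 0.125 and 0.588 FPKM in the DKO libraries and 17.6, 15.7 and 16 in WT. It was below 1 FPKM in every DKO library (log2 difference -3.70, SE 0.16, adjusted p = 1.0e-05). Ctse, the cathepsin E gene, stood at 17.6, 19.1 and 20.03 FPKM in the DKO libraries and 171, 171 and 151 in WT. It fell with no overlap (log2 difference -3.05, SE 0.08, adjusted p = 1.6e-06).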

How the data were processed

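RNA from 6 libraries (3 DKO, 3 WT) was compared. Expression is given as FPKM per library in a table the authors deposited. FastQC, TopHat2 2.1.0 and Cuffdiff 2.2.1, and the mm9 and mm10 builds, are named per the submitters' processing notes, and annotation, strand and filters are not given in the sources used here. Only 962 of 21443 autosomal genes found by symbol in GRCm38 started within 1000 bases of the position in the table, so positions of the table are not printed. Titles and source names number the DKO samples differently, so a DKO column stands for a library of that group and no particular sample.

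From the library values, genes on autosomes were kept if 3 of the 6 libraries had 1 FPKM or more. A gene that reached this level in 1 group alone could be counted only as higher in that group, in every family and list count. Two-sided tests used limma 3.58.1 in R 4.3.3 (1 mean per group, intensity trend) on log2(FPKM + 1), which understates the fold of low genes, and were tested on simulated data. P-values were adjusted by Benjamini-Hochberg over the 9648 genes. Values are mean ± SD. The main fit did not pair the libraries. Correlations of same-numbered deviations were -0.040, -0.119 and -0.108. As a DKO column stands for no particular sample, these values do not show whether the libraries were paired.

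Receptors, transcription factors and secreted factors were matched by name patterns, and 69 names that matched without belonging were removed by name. Of 446 listed genes, 442 were matched. Named by rule were the targeted and called Wnt pathway genes, the 10 largest rises and falls overall and the 15 in each class (called, averaging 5 FPKM or more in 1 group, no overlap), and the 3 smallest adjusted p per direction in each subclass and list. Other named genes were chosen after their values were seen, among them class members outside those ranks. A few genes that the rule names are not reported here. The members, classes and lists were chosen with earlier results of these data known. Transcript GC came from GENCODE M21 transcripts and promoters from RefSeq (GRCm38.p6). 1473 members had more than 1 start, and the first listed was used.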

Additional observations from a re-analysis of the deposited data

How the results depend on the processing

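Of 212 genes named by rule, 1 changed direction: Bcl9 went to a log2 difference of -0.064 after centring within bins of transcript GC, which also ended the calls of 11 others. Of 48 genes named after their values were seen, 10 lost their call in at least 1 fit without a library. Among them 2 uncalled genes changed direction: Ctnnb1 went to -0.208 after that centring, and Klrb1c ranged from -0.30 to 0.059 without 1 library and was 0.030 with array weights. With array weights the counts were 2589 genes higher, 181 transcription factors higher and 55 lower. With a mean of at least 5 FPKM, a setting that tests fewer genes, 39 receptors and 18 transcription factors were lower. The causes of these shifts were not tested. Leaving out each library in turn gave 1068 to 1852 genes higher (1068 without WT library 2) and 1426 to 2055 lower, 62 to 76 receptors higher and 59 to 69 lower, 80 to 121 transcription factors higher and 29 to 39 lower, and 22 to 28 secreted factors higher and 27 to 33 lower, and ended the calls of 7 to 19 named genes. With a replicate block by column number, 1207 genes were higher and 1569 lower, and 15 named genes were not called. Genes without a GC-rich window gave 1253 higher and 2017 lower. A pseudocount of 0.1 gave 1674 and 1955, quantile normalization 1577 and 1896, all 9 libraries 1848 and 2123, and no filter 1497 and 1915. Depth is unknown, so the counting error behind differences among genes under about 1 FPKM could not be estimated.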

Other observations

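X-linked genes were tested in a fit that added the sex chromosomes. Of 307 X-linked genes, 29 were higher in DKO (9.45%) and 77 lower (25.1%), beside 17.5% and 20.7% of all genes in that fit. Cxcr3, a chemokine receptor of effector and memory CD8 T cells, stood at 18.9, 18.6 and 20.9 FPKM in the DKO libraries and 98.4, 93.9 and 86.2 in WT, lower without overlap (log2 difference -2.20, SE 0.08, adjusted p = 6.4e-06). Foxp3, the regulatory T cell factor, was at 103, 111 and 114 and 0.859, 1.1 and 0.672 FPKM. Elf4, a GC-rich gene for a factor that restrains CD8 T cell proliferation, was at 37.9, 40.7 and 38 and 6.02, 9.83 and 22.9 (log2 difference 1.71, SE 0.40, adjusted p = 0.015). Gata1, an erythroid and megakaryocyte factor, was at 5.67, 6.16 and 4.36 and 2.03, 2.74 and 1.99 FPKM (log2 difference 0.97, SE 0.16, adjusted p = 0.0042). Of 7 erythroid markers past the filter, 2 were higher and 1 lower, their summed FPKM was 123 to 155 in DKO and 99.7 to 114 in WT, and the part of erythroid RNA in this difference was not tested.

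The long noncoding RNA of the Rosa26 locus, Gt(ROSA)26Sor, stood at 2.58, 1.89 and 1.78 FPKM in DKO and 23.5, 25 and 23.7 in WT (log2 difference -3.03, SE 0.13, adjusted p = 1.1e-05). The labels place the GFP reporter used in the sort at this locus in every group.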
